A study of Mus musculus with 9 samples.

Results

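Genes of the hypoxia response and of glycolysis were described in the mouse colon during colitis. The set was a list of 38 gene symbols. It matched 39 of the 35315 genes in the expression table, because 2 gene identifiers carry the symbol Aldoa, and 37 of the 39 passed the filter on low values. Whole colon RNA was sequenced from C57BL/6J wild-type mice aged 8 weeks, in 9 libraries. The 3 Control libraries came from mice on plain drinking water, with no injection listed. The 3 DSS libraries came from mice that drank 2.5% dextran sulfate sodium, a polymer that injures the colonic epithelium, over 7 days and received intravenous solvent on days 2, 4 and 6. The 3 GsMTx4 libraries came from mice on the same DSS water that received GsMTx4, a spider venom peptide that blocks mechanosensitive ion channels, at 10 mg/kg on those days. DSS and the injection therefore cannot be told apart in comparisons with Control. Whether each library stands for a different mouse is not labelled, so every p-value measures the spread between these libraries, which may be technical.

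Cells sense oxygen through hypoxia-inducible factors (HIFs). Prolyl hydroxylases of the EGLN family mark the HIF alpha subunits for degradation when oxygen is present, and in hypoxia the stable subunit pairs with ARNT and binds a short core motif near its target genes. Those targets include the glucose transporter GLUT1, most glycolytic enzymes, the kinases that keep pyruvate out of mitochondria, mitophagy receptors, and secreted factors that act on vessels and matrix. The colonic surface epithelium lives at low oxygen even in health, and inflamed tissue consumes more of it, so this response is well known in colitis.

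The HIF core motif was looked for in the promoters because it is the sequence through which the pathway acts on its targets. RefSeq promoters (GRCm38.p6) were available for 34 of the 38 symbols, and Epas1, Ndrg1, Bnip3l and Slc2a3 were not matched. The motif was searched as ACGTG and GCGTG on both strands (CACGT and CACGC in the printed strand) in the 250 bases before the start. A palindromic CACGTG counts as 2 overlapping matches. With 1 promoter per gene, ACGTG was present in 17 of 34 members (50%), against 16.6% of 32851 promoters of the same length, and GCGTG in 17 of 34 (50%) against 28.2%. Base composition was not matched, and the list includes genes known as HIF targets. A window of 120 bases before the start is shown for 3 members that rose with DSS and hold ACGTG (Hif1a, Slc2a1, Hk2), 1 that holds it and fell with GsMTx4 (P4ha1), 1 that rose and holds only GCGTG (Adm), 1 that holds 5 ACGTG matches and did not pass (Ldha) and 1 that holds neither and did not pass (Vegfa). For Slc2a1 the window was moved 9 bases upstream, because its annotated first exon begins before the RefSeq start. The window still holds 25 exon bases, and the ACGTG match runs across the annotated start of the gene. Counts are over all 250 bases, so some matches lie before the window. Capitals mark the motif matches.
Hif1a (chr12:73907747-73907866, plus strand): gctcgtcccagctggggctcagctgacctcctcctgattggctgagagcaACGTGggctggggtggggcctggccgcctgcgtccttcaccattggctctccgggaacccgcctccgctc
Slc2a1 (chr4:119108616-119108735, plus strand): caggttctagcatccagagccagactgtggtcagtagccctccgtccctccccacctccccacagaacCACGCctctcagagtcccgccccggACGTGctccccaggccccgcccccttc
Hk2 (chr6:82774455-82774574, minus strand): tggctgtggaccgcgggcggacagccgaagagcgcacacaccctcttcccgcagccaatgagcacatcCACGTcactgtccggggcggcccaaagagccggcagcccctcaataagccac
P4ha1 (chr10:59323176-59323295, plus strand): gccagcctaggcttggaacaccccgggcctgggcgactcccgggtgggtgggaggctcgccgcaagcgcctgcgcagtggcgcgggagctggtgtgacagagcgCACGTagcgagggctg
Adm (chr7:110627537-110627656, plus strand): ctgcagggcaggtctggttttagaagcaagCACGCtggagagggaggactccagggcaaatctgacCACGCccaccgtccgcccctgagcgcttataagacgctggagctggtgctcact
Ldha (chr7:46845684-46845803, plus strand): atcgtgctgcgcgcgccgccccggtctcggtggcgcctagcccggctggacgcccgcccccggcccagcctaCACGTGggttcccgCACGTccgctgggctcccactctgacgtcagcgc
Vegfa (chr17:46032378-46032497, minus strand): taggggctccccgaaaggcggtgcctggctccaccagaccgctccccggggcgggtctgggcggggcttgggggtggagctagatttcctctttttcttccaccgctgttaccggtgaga
Of the 8 members that rose with DSS, 5 held ACGTG (Hif1a, Egln3, Slc2a1, Hk2 and Pfkfb3), 2 held only GCGTG (Adm and Higd1a) and 1 held neither (Pkm). Among the other 26 members with a promoter, 12 held ACGTG. The RefSeq promoters of Hif1a, Ankrd37 and Ldha lie 6492, 5857 and 4329 bases from the starts of their gene models in the annotation used here. Those of P4ha2, Gapdh and Higd1a lie 829, 694 and 566 bases away, and all others at most 304. A match is a description of these letters and not a binding site.

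The members spanned a wide range of levels in the Control colon. On the FPKM scale, which is per length and so allows genes to be set against each other, Ldha (mean 210.6 FPKM), Aldoa (193.4), Pgk1 (170.0) and Pkm (135.2) led, and Eno2 (0.628) and P4ha2 (0.719) were lowest and were not tested. Slc2a1 made up at least 95.8% of the Slc2a1 and Slc2a3 FPKM in every library. The lowest share of Aldoa in the Aldoa and Aldoc FPKM was 96.5%, and that of Eno1 was 96.4% of the Eno1 and Eno2 FPKM. Gapdh, the usual loading control, was listed at only 8.46 to 26.6 FPKM. Of the 50-base stretches of its transcripts, 82.5% also occur in other genes' transcripts, and Gapdh summed with 46 such copies came to 699 to 1302 FPKM across the libraries. Its own value is therefore uncertain, as are, in part, those of Eno1 (72.2% of stretches shared), Pgk1 (68%), Pgam1 (41.5%), Pkm (34.4%) and Bnip3l (23.4%). Summing these members with their copies, an alternative chosen after seeing the data, left the calls in the comparisons below as they were.

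**Figure D1:**
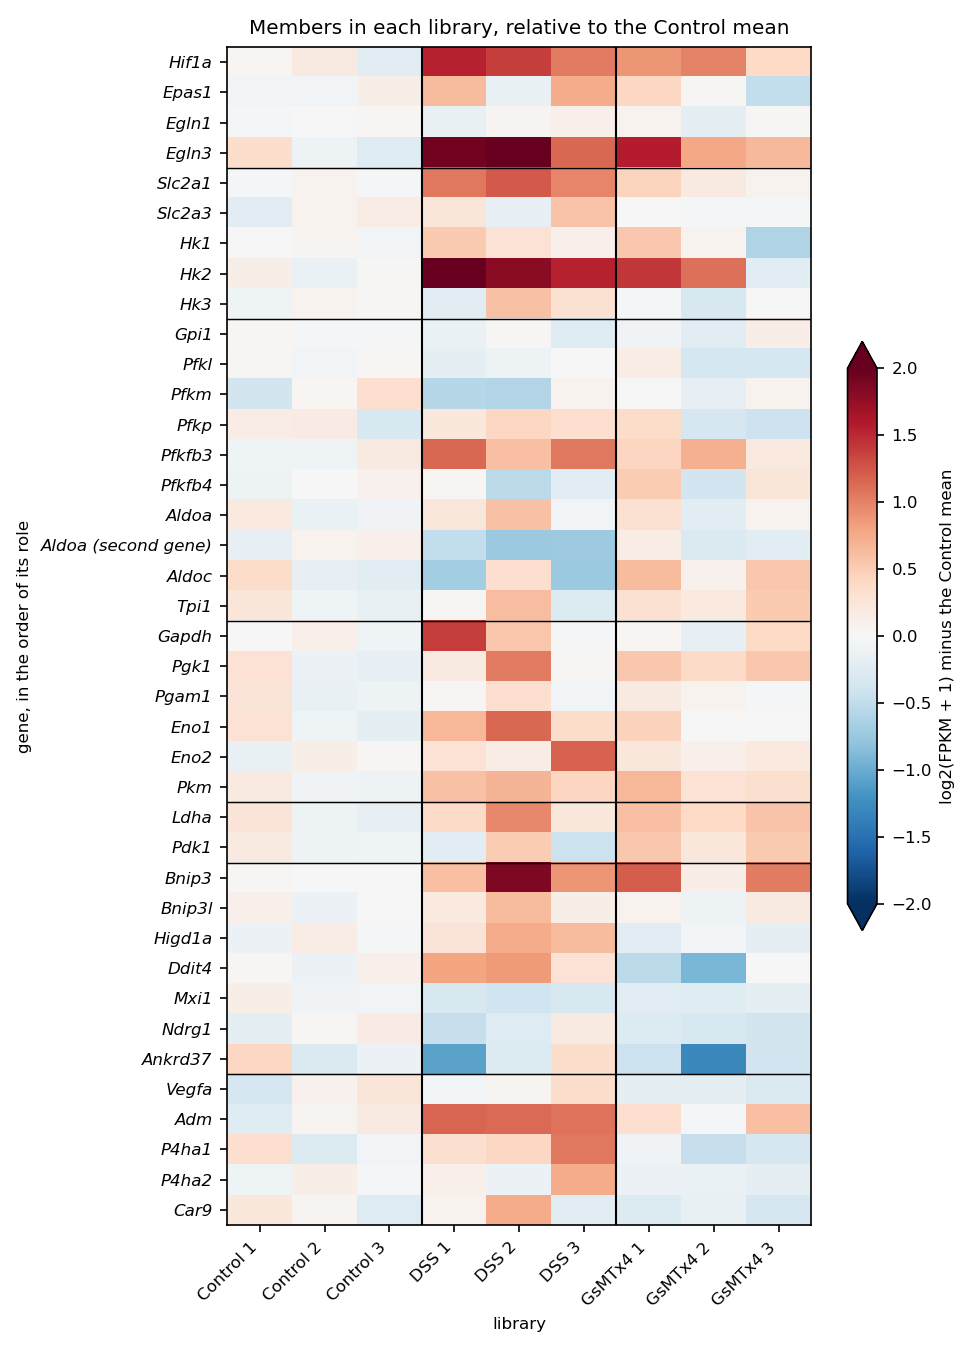
Heat map of the 39 genes (vertical, grouped by role between the horizontal lines) in the 9 libraries (horizontal). Colour gives log2(FPKM + 1) minus the mean of the 3 Control libraries. Hif1a, Egln3, Slc2a1, Hk2, Pfkfb3 and Adm are red in all 3 DSS libraries, while Aldoa, Tpi1, Pgk1, Eno1 and Ldha are deepest in DSS 2.

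With DSS, the genes that rose were the HIF subunit gene Hif1a, the HIF hydroxylase gene Egln3, the entry steps of glucose use Slc2a1 and Hk2, the glycolytic activator Pfkfb3, the last glycolytic enzyme Pkm, the mitochondrial protein Higd1a and the vasodilator peptide gene Adm. Of 37 tested members 8 rose and 1 fell by limma with Benjamini-Hochberg adjustment over all 14360 tested genes. Over all genes 6.41% rose and 10.7% fell. At an unadjusted p under 0.05 in limma were 15 of 37 members, counting both directions, against 5014 of all 14360 tested genes. The groups did not overlap, with DSS higher, for 14 members (13.5% of all genes) and with DSS lower for 2 (33.6% of all genes). The median member differed by 0.31 on the log2(FPKM + 1) scale, against -0.17 over all genes, and 27 of 37 members were above 0. Under other scalings the median of all genes moved by -0.11 (TPM), 0.16 (median-of-ratios) or 0.11 (quantile). The share of calls that were higher, 37.4%, became 27.5%, 60.1% and 50.1%, and none of the 8 risen members changed sign.

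The calls differed in how they held under other processing. Hif1a, Egln3, Slc2a1 and Hk2 stayed past the threshold in all 20 alternatives, and Adm in all 19 in which it was tested. Pfkfb3 missed the threshold without Control 2 (adjusted p = 0.055) and when a 2-fold change was also required. Higd1a was lost in 10 of 20 alternatives, and Pkm in 12 of 20. In both cases this included leaving out any 1 of the Control libraries, with adjusted p from 0.0769 to 0.13 for Higd1a and from 0.0705 to 0.154 for Pkm. Leaving out DSS 2, DSS 3 or GsMTx4 2 also ended both calls, with adjusted p from 0.0524 to 0.108 for Higd1a and from 0.0577 to 0.114 for Pkm, and leaving out DSS 1 ended that of Pkm (adjusted p = 0.0995).

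In the oxygen-sensing pathway, Hif1a, the regulated alpha subunit of HIF-1 (chr12, 73901375 to 73947530, plus strand), was at 32.8, 36.3 and 27.7 FPKM in the Control libraries, 94.7, 85.6 and 67.2 in DSS and 60.1, 65.1 and 42.7 with GsMTx4. All 3 DSS libraries were above all others, and all 3 GsMTx4 libraries were above all Control libraries. The rise with DSS was 1.32 (SE 0.20, adjusted p = 0.00408), from a mean of 32.3 ± 4.37 to 82.5 ± 14.0 FPKM (SD, n = 3). Epas1, the alpha subunit of HIF-2, was at 16.2, 16.3 and 18.4 FPKM in Control, 26.8, 15.1 and 28.9 in DSS and 22.9, 17.2 and 11.7 with GsMTx4, and DSS 2 lay below every Control library. Its difference with DSS was 0.40 (SE 0.28, adjusted p = 0.318). Hif1a thus made up 65.3 ± 4.7% of the summed Hif1a and Epas1 FPKM in Control, 77.6 ± 7.5% in DSS and 76.7 ± 3.7% with GsMTx4 (SD, n = 3), a share that scaling between libraries does not move. The lowest GsMTx4 share, 72.4%, was above the highest Control share, 69%. No test was made of the shares, since an exact permutation test of 3 against 3 libraries cannot go below p = 0.1.

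Egln3 encodes PHD3, a HIF prolyl hydroxylase that is itself a HIF target. It was at 20.4, 14.5 and 13.0 FPKM in Control, 62.6, 71.1 and 35.9 in DSS and 48.5, 27.6 and 25 with GsMTx4. Every DSS and GsMTx4 library was above every Control library, and DSS 3 lay below GsMTx4 1. The rise with DSS was 1.73 (SE 0.32, adjusted p = 0.00836). Egln1, which encodes the main oxygen sensor PHD2, stayed between 14.3 and 17.7 FPKM in all 9 libraries, with a difference of 0.01 (SE 0.12, adjusted p = 0.975).

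Glucose enters through Slc2a1 (GLUT1) and is trapped by hexokinase. Slc2a1 (chr4, 119108711 to 119137983, plus strand) was at 25.7, 27.3 and 25.3 FPKM in Control, 55.5, 62.1 and 52.4 in DSS and 35.9, 29.6 and 27.5 with GsMTx4. The 3 groups did not overlap, and the rise with DSS was 1.09 (SE 0.14, adjusted p = 0.00196). Hk2, the inducible hexokinase that binds mitochondria (chr6, 82725025 to 82774454, minus strand), was at 36.9, 31.0 and 34.5 FPKM in Control, 148, 122 and 101 in DSS and 92.5, 73.9 and 29.2 with GsMTx4. DSS was above all other libraries, and GsMTx4 3 was below all Control libraries while the other GsMTx4 libraries were above them. The rise of Hk2 with DSS was 1.81 (SE 0.36, adjusted p = 0.0117), the largest log2 change among the members. Hk1, the housekeeping hexokinase, ranged from 21 to 22.8 FPKM in Control and 23.4 to 32.0 in DSS, with a difference of 0.31 (adjusted p = 0.412), and Hk3 differed by 0.22 (adjusted p = 0.448). Hk2 supplied 57.3 ± 3.0% of the hexokinase FPKM in Control, 79.3 ± 1.4% in DSS and 69.7 ± 6.3% with GsMTx4 (SD, n = 3). By library the Hk2 share was 53.9% to 59.5% in Control, 78.3% to 81% in DSS and 62.5% to 74.3% with GsMTx4, so the 3 groups did not overlap in it. Slc2a3 (GLUT3) was low throughout, between 0.61 and 1.79 FPKM.

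**Figure D2:**
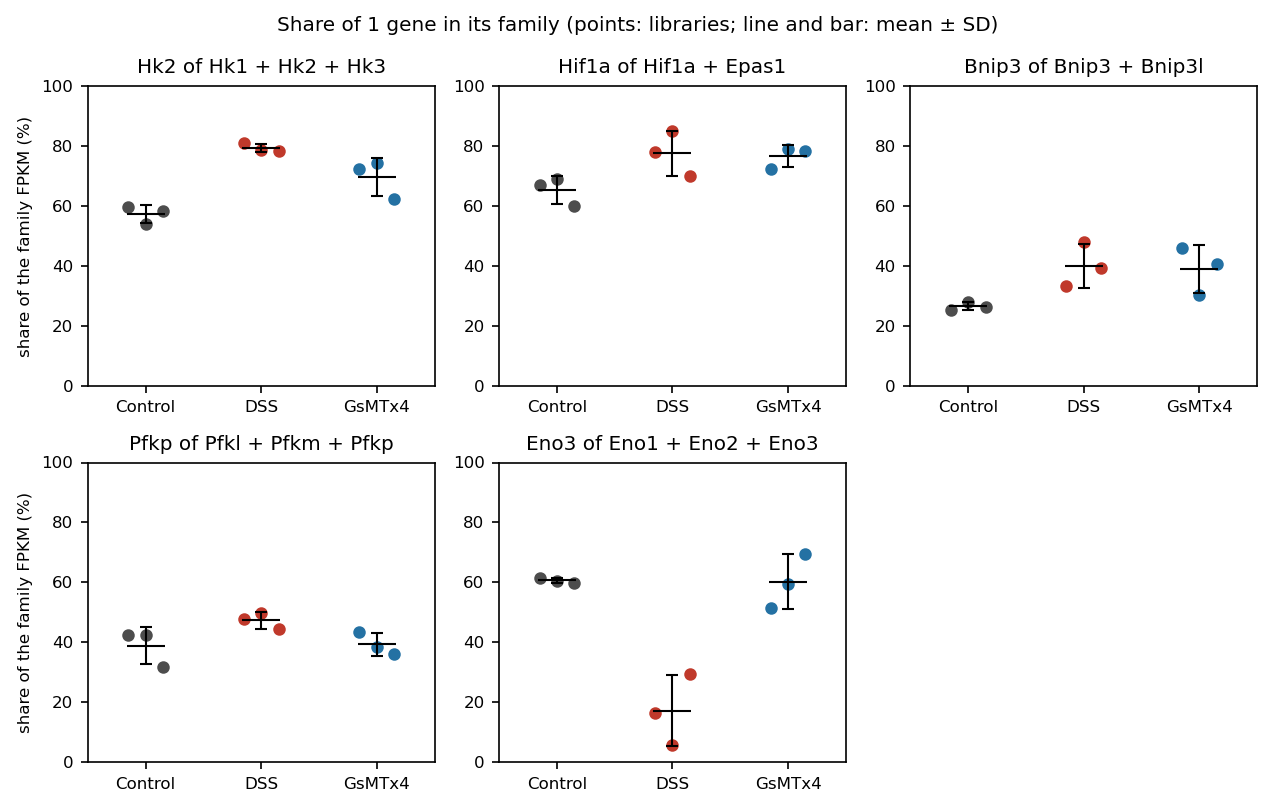
Share of 1 gene in the summed FPKM of its family (vertical, percent) in each library (points) by group (horizontal), with mean ± SD. The Hk2 share is 53.9% to 59.5% in Control and 78.3% to 81% in DSS, and the Eno3 share drops from 60.7% to 17.3% and stands at 60.2% with GsMTx4. The Eno3 share rests on the uncertain level of Eno1, and the Bnip3 share on that of Bnip3l.

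In upper glycolysis Pfkfb3, which makes the phosphofructokinase activator fructose-2,6-bisphosphate, was at 3.24, 3.24 and 4.08 FPKM in Control, 8.97, 5.82 and 8.34 in DSS and 5.08, 6.36 and 4.15 with GsMTx4. All DSS and GsMTx4 libraries were above Control, and GsMTx4 2 was above DSS 2. The rise with DSS was 0.93 (SE 0.19, adjusted p = 0.0122). Its paralog Pfkfb4 differed by -0.24 (adjusted p = 0.482), and the phosphofructokinases that both regulate differed by -0.10 (Pfkl), -0.36 (Pfkm) and 0.32 (Pfkp), none past the threshold. Gpi1, the isomerase before this step, and Aldoa, Aldoc and Tpi1, the aldolases and isomerase after it, differed by -0.13, 0.26, -0.37 and 0.12. The second gene with the symbol Aldoa (ENSMUSG00000114515, chr7, 126800790 to 126809108, next to the main one) was at 0.855, 1.18 and 1.23 FPKM in Control, 0.483, 0.246 and 0.261 in DSS and 1.31, 0.698 and 0.769 with GsMTx4. It fell by 0.65 with DSS (SE 0.17, adjusted p = 0.0328), at levels about or below 1 FPKM. That call was lost in several alternatives, among them leaving out any 1 Control library, DSS 2 or DSS 3.

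In lower glycolysis Pkm, pyruvate kinase M, was at 153, 128 and 125 FPKM in Control, 203, 217 and 181 in DSS and 215, 164 and 168 with GsMTx4. All DSS and all GsMTx4 libraries were above Control, and the rise with DSS was 0.57 (SE 0.17, adjusted p = 0.0465). Eno1, alpha-enolase, was at 47.3 to 66.5 FPKM in Control and 70.4 to 121 in DSS, and the difference of 0.73 missed the threshold (SE 0.23, adjusted p = 0.0595). It passed without DSS 3 (0.91, adjusted p = 0.042) and under median-of-ratios scaling (0.92, adjusted p = 0.048). Gapdh, whose counting is uncertain, passed only without DSS 3 (0.97, adjusted p = 0.0462). Pgk1 differed by 0.41 (adjusted p = 0.292) and Pgam1 by 0.10 (adjusted p = 0.687). Ldha, which turns pyruvate into lactate, was at 251, 195 and 186 FPKM in Control, 271, 407 and 243 in DSS and 316, 276 and 309 with GsMTx4. All GsMTx4 libraries were above Control, while DSS 3 overlapped Control 1, and the DSS difference was 0.52 (SE 0.22, adjusted p = 0.129). Pdk1, the HIF-induced kinase that switches off pyruvate dehydrogenase, was at 11.4, 9.19 and 9.35 FPKM in Control, 8.47, 14.5 and 7.08 in DSS and 14.9, 11.8 and 14.7 with GsMTx4. DSS 2 stood well above the other DSS libraries, which were below Control, and the DSS difference was -0.05 (SE 0.23, adjusted p = 0.898).

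Libraries of the same group differed in the level of glycolytic enzymes. Of the 37 tested members, 18 (48.6%) were highest in Control 1 among the Control libraries, against 34.9% of all tested genes. DSS 2 was the highest DSS library for 19 (51.4%), against 23.3% of all tested genes. GsMTx4 1 was the highest GsMTx4 library for 21 (56.8%), against 28.0%. Not all enzymes followed the order in Control and DSS: Gapdh was highest in Control 2 and DSS 1, and Pfkl and Pfkm in Control 3 and DSS 3. Gpi1, Aldoa, Tpi1, Pgk1, Pgam1, Eno1, Pkm and Ldha, grouped after their values were seen, were summed in each library as a description. Their summed FPKM was 1182, 937 and 921 in Control, 1224, 1713 and 1066 in DSS and 1369, 1139 and 1282 with GsMTx4. DSS 2 was the highest library and DSS 3 lay below Control 1, so Control (1013 ± 147) and DSS (1334 ± 337, SD, n = 3) overlapped, whereas GsMTx4 (1263 ± 116) overlapped Control only through library 2. The summed markers of colonic epithelium were also highest in Control 1 and DSS 2 of their groups (7313 and 8762 FPKM), with Control ranging from 5887 and DSS from 5880. With GsMTx4 the 2 sums parted. The epithelial sum was highest in GsMTx4 3 (7459 FPKM, against 6937 in GsMTx4 1), and the enzyme sum in GsMTx4 1. The part of the epithelium in the enzymes' values was not tested.

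Among genes of mitochondria and stress, Higd1a, an inner mitochondrial membrane protein that acts on respiration in hypoxia, was at 15.4, 18.9 and 16.5 FPKM in Control, 20.3, 28.9 and 26.8 in DSS and 14.3, 16.2 and 14.7 with GsMTx4. DSS was above every other library, and the rise was 0.55 (SE 0.15, adjusted p = 0.0404). Bnip3, a mitophagy receptor, was 7.81 to 8.02 FPKM in Control and 12.5, 31.5 and 15.3 in DSS, with a difference of 1.12 that missed the threshold (SE 0.35, adjusted p = 0.0563). Its spread within DSS came mostly from DSS 2, and its GsMTx4 libraries also varied, at 19.5, 8.76 and 17.1 FPKM. The Bnip3 share of the Bnip3 and Bnip3l FPKM was 26.6 ± 1.4% in Control, 40.1 ± 7.4% in DSS and 39.0 ± 8.0% with GsMTx4 (SD, n = 3). These shares are in part uncertain, because 21.9% of the 50-base stretches of Bnip3 and 23.4% of those of Bnip3l also occur in other genes' transcripts. With its copy Bnip3l came to 26.7 to 30.6 FPKM in Control, 32.8 to 45.3 in DSS and 27.3 to 34.3 with GsMTx4. Bnip3 passed without DSS 1 (1.37, adjusted p = 0.041), without GsMTx4 2 (adjusted p = 0.038) and with the compared groups fitted alone (adjusted p = 0.0466). Ddit4, the mTORC1 inhibitor REDD1, was at 41.5, 37.7 and 44.0 FPKM in Control and 71.6, 75.0 and 50.4 in DSS, all above Control, with a difference of 0.65 (SE 0.24, adjusted p = 0.0904). It passed without GsMTx4 3 (adjusted p = 0.038) and with the compared groups fitted alone (adjusted p = 0.0428). Mxi1, a MYC antagonist, was lower in each DSS library, by -0.34 (adjusted p = 0.0594), and passed without GsMTx4 3 (adjusted p = 0.0496) and with the filter at a mean of 5 FPKM (adjusted p = 0.04). Ndrg1 and Ankrd37, both known as hypoxia-induced, differed by -0.18 and -0.33 (adjusted p = 0.484 and 0.548).

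Of the secreted and matrix genes, Adm, adrenomedullin, was at 1.94, 2.61 and 2.94 FPKM in Control, 6.79, 6.6 and 6.35 in DSS and 3.37, 2.42 and 4.25 with GsMTx4. The DSS libraries were close to each other and above all others, and the rise was 1.13 (SE 0.18, adjusted p = 0.00482). Vegfa, the main HIF-driven angiogenic factor, was at 9.45, 12.9 and 14.5 FPKM in Control, 11.6, 12.6 and 15.7 in DSS and 10.5, 10.5 and 9.70 with GsMTx4. Control and DSS overlapped, with a difference of 0.11 (SE 0.17, adjusted p = 0.653). Car9, the pH regulator often used as a hypoxia marker, was at 20.8, 18.7 and 14.8 FPKM in Control, 19.0, 30.6 and 15.1 in DSS and 14.6, 16.1 and 14.0 with GsMTx4. DSS 2 alone was above Control, and the difference was 0.20 (SE 0.24, adjusted p = 0.572). P4ha1, a collagen prolyl hydroxylase subunit, differed by 0.60 (SE 0.23, adjusted p = 0.101) and passed under median-of-ratios scaling (0.77, adjusted p = 0.0473). P4ha2 was highest in DSS 3, at 1.88 FPKM, and between 0.491 and 0.862 FPKM in every other library.

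**Figure D3:**
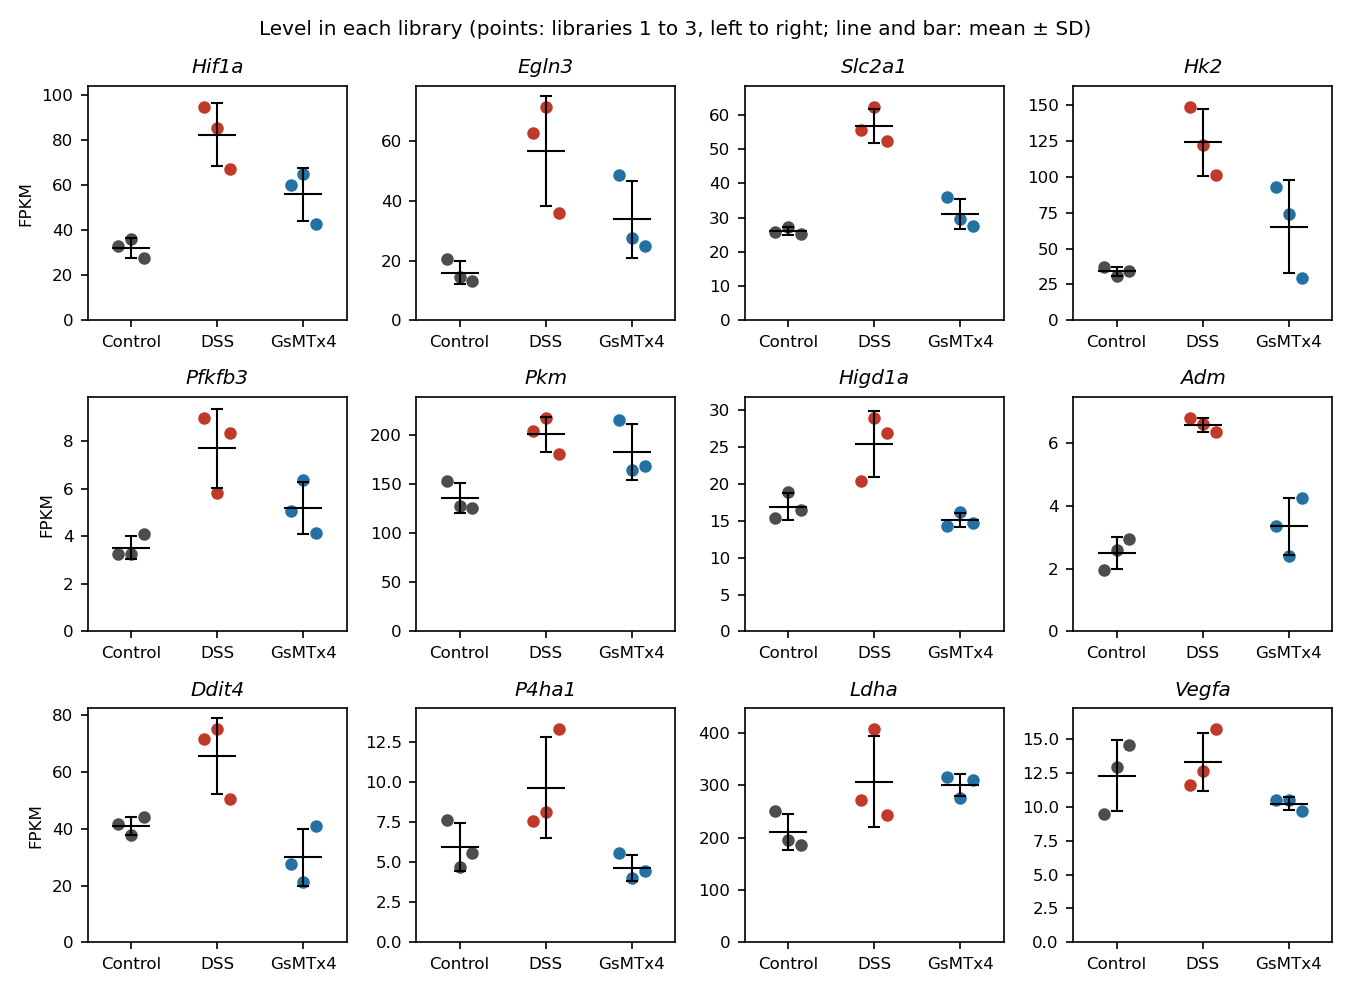
FPKM (vertical, from 0) of 12 members in each library (points) by group (horizontal), with mean ± SD. Slc2a1 and Adm sit in tight, separate DSS groups, Hif1a and Hk2 are intermediate with GsMTx4 on average, and the Control and DSS libraries of Vegfa overlap.

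Markers of other cell types rose with DSS as well. In whole tissue, more cells of a type cannot be told apart from more RNA per cell. Neutrophil markers summed to 2.94 to 4.69 FPKM in Control, 71.5, 106 and 353 in DSS and 8.60 to 54.5 with GsMTx4, and 7 of 8 tested rose with DSS. Monocyte and macrophage markers summed to 489 to 591, 909 to 1155 and 557 to 704 FPKM, with 4 of 12 risen, and endothelial markers to 14.8 to 19.8, 24.0 to 46.1 and 14.3 to 23.8 FPKM, with 4 of 8 risen. Lymphocyte markers summed to 43.5 to 58.4, 85.2 to 189 and 43.5 to 63.9 FPKM, with 2 of 8 risen. All 12 epithelial markers, which define the labelled tissue, passed the filter, and 1 rose (Car1) and 1 fell (Cdx1). None of the tested smooth muscle (8), fibroblast (7), red blood cell (4) or skeletal muscle (3) markers passed, with sums in DSS of 213 to 838, 178 to 344, 17.9 to 78.6 and 2.32 to 7.50 FPKM against 429 to 700, 172 to 191, 14.3 to 37.4 and 3.99 to 5.20 in Control. Of 7 hepatocyte markers 2 fell and none rose with DSS. Over all genes 6.41% rose and 10.7% fell with DSS. No listed marker was at 0 in every library. DSS 3 had the most neutrophil marker RNA of the DSS libraries. It was the lowest DSS library for 6 of the 8 risen members (Hif1a, Egln3, Slc2a1, Hk2, Pkm and Adm). Pfkfb3 was lowest in DSS 2 and Higd1a in DSS 1. DSS 3 also had the lowest epithelial sum (5880 FPKM) and the highest smooth muscle, fibroblast and endothelial sums. GsMTx4 1 had the most neutrophil marker RNA of its group (54.5 FPKM). It was the highest GsMTx4 library for Egln3, Slc2a1, Hk2 and Pkm. Hif1a, Pfkfb3 and Higd1a were highest in GsMTx4 2, and Adm in GsMTx4 3. How often any gene is lowest in DSS 3 was not counted. The part of these cells in the members' changes was not tested.

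With GsMTx4 on top of DSS, Slc2a1, Ddit4, Adm, Higd1a and P4ha1 were lower than with DSS alone. Of 37 members 5 fell and none rose by limma with Benjamini-Hochberg adjustment, against 5.62% and 6.66% of all genes. At an unadjusted p under 0.05 in limma were 12 of 37 members, counting both directions, against 4324 of all 14360 tested genes. The groups did not overlap, with GsMTx4 lower, for 8 members (12.8% of all genes) and with GsMTx4 higher for 2 (17.5% of all genes). The median member differed by -0.31, against 0.07 over all genes, and 10 of 37 were above 0. This comparison and the one with Control share the DSS libraries, so the values are set side by side and their signs are not independent.

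Slc2a1 fell by 0.85 (SE 0.14, adjusted p = 0.00712), after a rise with DSS of 1.09. It was the one member whose call held in every alternative except the added 2-fold requirement (19 of 20). Adm fell by 0.82 (SE 0.18, adjusted p = 0.0204) after a rise of 1.13, and Higd1a by 0.70 (SE 0.15, adjusted p = 0.0217) after a rise of 0.55. Ddit4, whose DSS difference of 0.65 had missed the threshold, was at 27.8, 21.4 and 41.0 FPKM with GsMTx4, below every DSS library and below or among the Control libraries. It fell by 1.13 (SE 0.24, adjusted p = 0.0188). P4ha1 was at 7.60, 4.67 and 5.55 FPKM in Control, 7.53, 8.13 and 13.3 in DSS and 5.54, 3.98 and 4.44 with GsMTx4. Its GsMTx4 libraries were below every DSS library, and it fell by 0.88 (SE 0.23, adjusted p = 0.0392).

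Except for Slc2a1 these calls were near the threshold. Only Slc2a1 remained when the 6 DSS and GsMTx4 libraries were fitted alone, or without GsMTx4 2, where the adjusted p was 0.0638 for Ddit4 and Adm and 0.0554 for Higd1a. Without DSS 2 the adjusted p was 0.052 for Ddit4 and 0.0548 for Higd1a. Without DSS 3 it was 0.0501 for Adm and 0.0638 for Higd1a, and without DSS 1 it was 0.0529 for Adm and 0.0516 for Ddit4. P4ha1 was lost in 11 of 20 alternatives, including leaving out Control 2, Control 3, DSS 2, DSS 3, GsMTx4 2 or GsMTx4 3, with adjusted p up to 0.128.

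Some markers of other cells fell as well. With GsMTx4 against DSS, 4 of 8 neutrophil, 2 of 12 macrophage, 2 of 8 endothelial, 3 of 7 fibroblast, 1 of 8 lymphocyte and 1 of 4 red blood cell markers fell, and none of smooth muscle or skeletal muscle. Of 12 epithelial markers 2 rose and 2 fell. Hepatocyte markers went the other way, with 6 of 7 risen against DSS and 4 of 7 against Control. Over all genes 5.62% fell and 6.66% rose against DSS, and 0.188% rose against Control. A single call in a list of 4 or 8 markers is not read as a change of that cell type. Fibroblast markers summed to 178, 266 and 344 FPKM in DSS and 148 to 179 with GsMTx4. DSS 3 was the highest DSS library both for this sum and for P4ha1, as it was for 43.9% of all tested genes. The part of these cells in the falls was not tested.

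Hif1a, Hk2 and Egln3, among the largest changes with DSS, did not pass with GsMTx4. Hif1a was lower in all 3 GsMTx4 libraries than in any DSS library, by -0.56 (SE 0.20, adjusted p = 0.0994). Hk2 differed by -1.05 (SE 0.36, adjusted p = 0.0907), with GsMTx4 1 at 92.5 FPKM and GsMTx4 3 at 29.2, and passed only without GsMTx4 1 (-1.37, adjusted p = 0.0397). Egln3 differed by -0.73 (SE 0.32, adjusted p = 0.157), and Pfkfb3 by -0.49 (SE 0.19, adjusted p = 0.121). Pfkfb3 passed under median-of-ratios scaling (adjusted p = 0.0453) and quantile normalization (adjusted p = 0.0388). Pfkp passed without GsMTx4 1 (-0.69, adjusted p = 0.0385), and Aldoc without DSS 2 (1.14, adjusted p = 0.0236). Of the lower enzymes, Ldha (0.00, SE 0.22, adjusted p = 0.999), Pgk1 (0.07), Pgam1 (-0.02) and Pkm (-0.14) showed little difference. Eno1 was at -0.57 (adjusted p = 0.133), and Gapdh, whose counting is uncertain, at -0.54 (SE 0.31, adjusted p = 0.278). Pdk1 was at 0.47 (SE 0.23, adjusted p = 0.202) and passed, at 0.75 (adjusted p = 0.0308), only without DSS 2, whose Pdk1 level was the highest in DSS. Vegfa was lower in each GsMTx4 library than in any DSS library, by -0.34 (SE 0.17, adjusted p = 0.22), and Car9 differed by -0.45 (SE 0.24, adjusted p = 0.236).

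Against Control, no member passed with GsMTx4 (0 higher and 0 lower by limma with Benjamini-Hochberg adjustment), where 0.188% of all genes rose and 0.0487% fell. Of 37 tested members 6 had an unadjusted p under 0.05 in limma, against 1456 of all 14360 tested genes. Yet 9 members were higher without overlap (5% of all genes), and 3 were lower (14.6%). Higher without overlap were Hif1a (0.76, adjusted p = 0.262), Egln3 (1.0, adjusted p = 0.342), Slc2a1 (0.23), Pfkfb3 (0.44), Pgk1 (0.49), Pkm (0.42), Ldha (0.52), Pdk1 (0.43) and Bnip3 (0.79). Hk2 stood at 0.76 (SE 0.36, adjusted p = 0.522), with GsMTx4 3 below Control, and passed without that library (1.25, adjusted p = 0.0336). Lower without overlap were Mxi1 (-0.21), Ndrg1 (-0.32) and Ankrd37 (-0.70). The median member was at 0.05, against -0.08 over all genes.

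**Figure D4:**
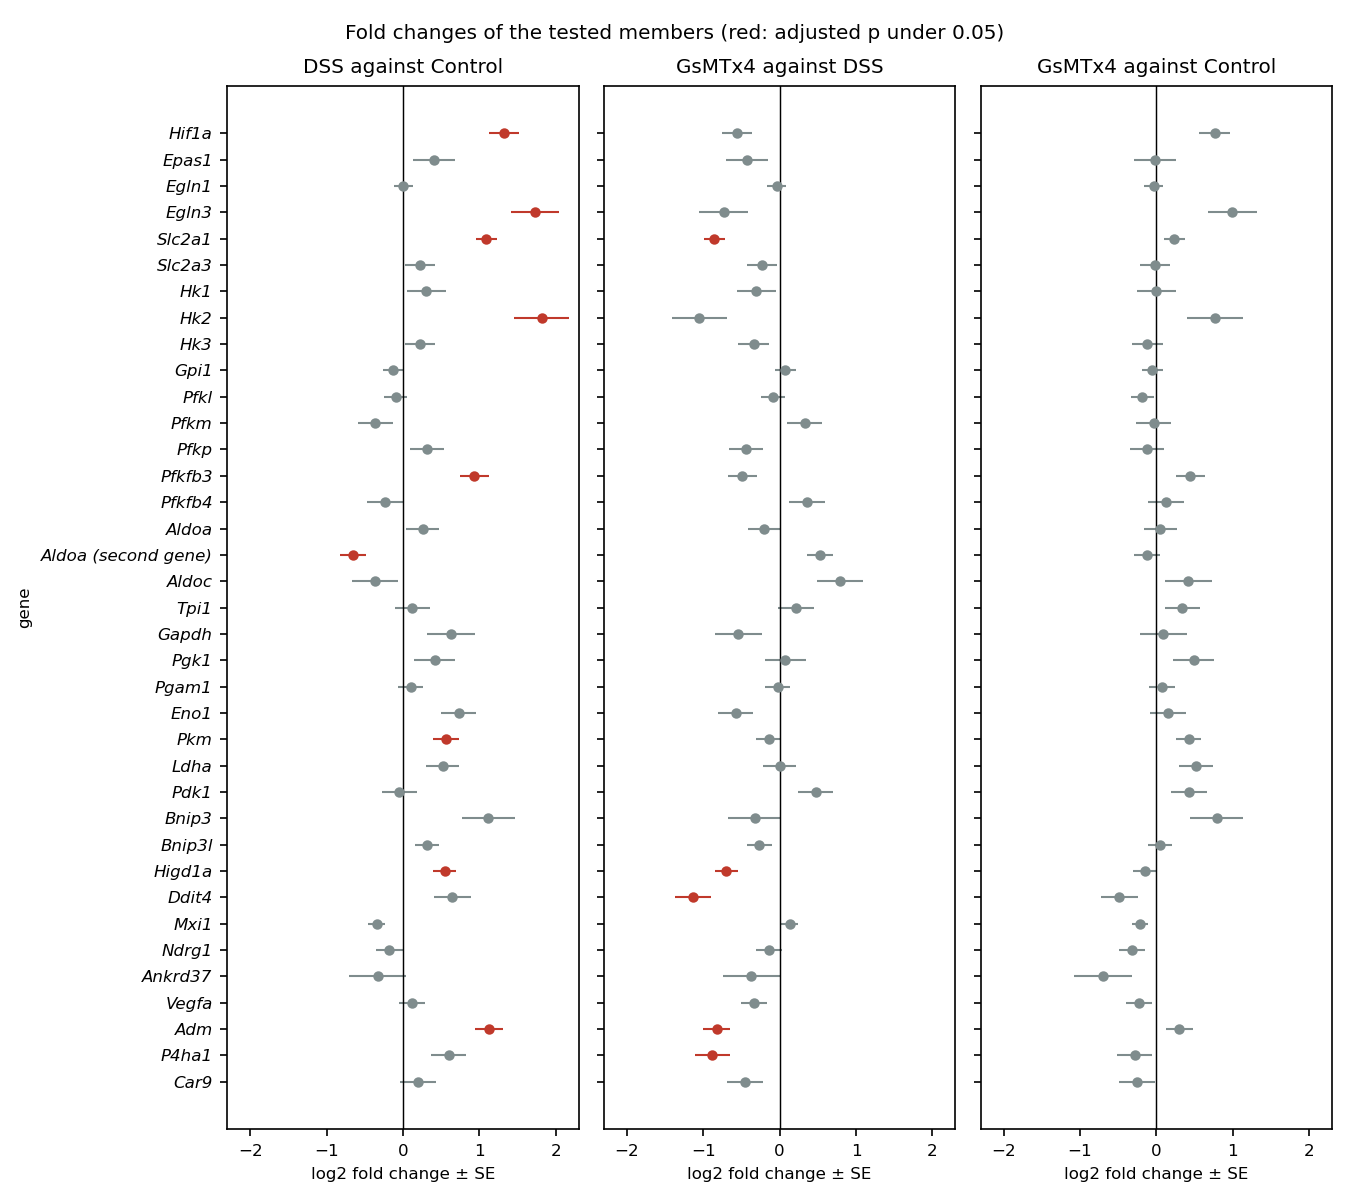
Log2 fold change on the log2(FPKM + 1) scale ± SE (horizontal) of the 37 tested members (vertical) in the 3 comparisons (panels). Red points have an adjusted p under 0.05: 8 higher and 1 lower with DSS, 5 lower with GsMTx4 against DSS, and none with GsMTx4 against Control.

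Around the members, no other gene of the HIF signal itself passed with DSS, and 8 other HIF targets did. Of 13 tested HIF pathway genes outside the members (dimerization partners, hydroxylases, the VHL ligase, coactivators) 0 passed with DSS by limma with Benjamini-Hochberg adjustment (0 higher and 3 lower at an unadjusted p under 0.05), under which 17.1% of all genes passed. With GsMTx4 against DSS, Cul2, the scaffold of the VHL ligase, rose by 0.47 (adjusted p = 0.0411) and Cited2, a competitor of HIF for its coactivators, fell by 0.63 (adjusted p = 0.0474). Both calls were lost in most alternatives, leaving out any 1 Control library among them (0 of 13 in each direction). Of 29 other known HIF targets, 7 rose and 1 fell with DSS (median 0.37), against 6.41% and 10.7% of all genes. With GsMTx4 against DSS 7 fell and none rose, against 5.62% and 6.66% of all genes. The median was -0.44, and 1 was higher at an unadjusted p under 0.05 by limma. By p-value the rises with DSS were led by Hmox1, which degrades heme (1.69, adjusted p = 0.000492), Angptl4, a lipase inhibitor (1.45, adjusted p = 0.00867), and Cxcr4, a chemokine receptor (1.59, adjusted p = 0.0104). The transferrin receptor gene Tfrc went the other way, from 37.2, 34.2 and 71.9 FPKM in Control to 8.70, 11.5 and 8.05 in DSS, and fell by 2.16 (SE 0.37, adjusted p = 0.00625). By p-value the falls with GsMTx4 were led by Hmox1 (-1.29, adjusted p = 0.00201), Angptl4 (-1.86, adjusted p = 0.00505) and the collagen lysyl hydroxylase Plod2 (-1.0, adjusted p = 0.0169). By size, Ak4, an adenylate kinase named after its values were seen, led both ways, with a rise of 1.71 (adjusted p = 0.0451) and a fall of 2.35 (adjusted p = 0.0188). The count of rises was 3 or 4 when DSS 2, DSS 3 or any 1 Control library was left out, and that of falls 3 without GsMTx4 2, 4 without GsMTx4 3 and 2 with the compared groups fitted alone.

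Other glycolytic isozymes and sugar or lactate transporters included Eno3, Slc5a1 and Slc16a1, which fell with DSS and were higher again with GsMTx4. Of 13 tested, 3 fell with DSS and 3 rose with GsMTx4 against DSS, with 0 in the other direction by limma at an adjusted p or at an unadjusted p under 0.05. Over all genes 10.7% fell with DSS and 6.66% rose with GsMTx4 against DSS. Eno3, beta-enolase, was at 108, 79.7 and 71.3 FPKM in Control, 17.5, 7.53 and 30.5 in DSS and 80.0, 81.6 and 126 with GsMTx4. The DSS libraries were below all others, with a fall of 2.33 (SE 0.42, adjusted p = 0.0077) and then a rise of 2.47 (SE 0.42, adjusted p = 0.00858). The sodium-coupled glucose transporter Slc5a1 fell by 1.36 (adjusted p = 0.00436) and rose by 1.11 (adjusted p = 0.0126). Slc16a1, the monocarboxylate transporter that takes up butyrate, fell by 0.95 (adjusted p = 0.00596) and rose by 0.58 (adjusted p = 0.0448). Set against Eno1 and Eno2, a comparison chosen after the values were seen, Eno3 supplied 60.7 ± 0.91% of the enolase FPKM in Control, 17.3 ± 11.8% in DSS and 60.2 ± 9.18% with GsMTx4 (SD, n = 3). The level of Eno1 is uncertain, as given above, and so are these shares. With its copies Eno1 came to 61.4 to 99.7 FPKM in Control, 102 to 186 in DSS and 77.9 to 110 with GsMTx4. The 3 rises became 1 without GsMTx4 2 and with the compared groups fitted alone.

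Among the genes that bring pyruvate into mitochondrial oxidation, Dlat, Dld, Pdhb, Pdha1, Pdpr, Pdk2 and Pdp2 fell with DSS and rose with GsMTx4 against DSS, 2 comparisons that share the DSS libraries. Of 13 tested, 7 fell and 1 rose with DSS (10.7% and 6.41% of all genes, median -0.44), and 7 rose and none fell with GsMTx4 against DSS (1 lower at an unadjusted p under 0.05 by limma; 6.66% and 5.62% of all genes, median 0.55). Pdhx, Mpc1, Mpc2, Pdk3 and Pdk4 passed in neither comparison. Both sets of names were given after the values were seen. The summed FPKM of the 13 genes ranged from 241 to 243 in Control, 158 to 176 in DSS and 242 to 263 with GsMTx4, with no overlap between DSS and either other group. Pdha1, the catalytic subunit of pyruvate dehydrogenase, was at 67.0, 68.3 and 68.4 FPKM in Control, 50.6, 54.5 and 45.1 in DSS and 83.7, 81.7 and 80.0 with GsMTx4. It rose with GsMTx4 by 0.70 (SE 0.12, adjusted p = 0.00929). Pdk2, an inhibitory kinase of the complex, fell by 1.18 with DSS (adjusted p = 0.00124) and rose by 0.71 (adjusted p = 0.0112), and the activating phosphatase Pdp2 fell by 0.79 (adjusted p = 0.00649) and rose by 1.02 (adjusted p = 0.00361). This kinase and this phosphatase, of opposite action, changed in the same direction. Pdhb, the partner subunit of Pdha1, fell by 0.66 (adjusted p = 0.0078), and Pdp1, the other phosphatase, rose by 0.74 with DSS (adjusted p = 0.0272). The 7 falls became 4 without any 1 Control library, and the 7 rises became 3 without DSS 3 or GsMTx4 2 and 2 with the compared groups fitted alone.

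Some genes of gluconeogenesis and of the pentose phosphate pathway passed. The list medians with DSS were -0.66 and -0.21, against -0.17 over all genes. Of 6 gluconeogenic genes tested 3 fell with DSS: Slc37a4, the glucose-6-phosphate carrier (-0.82, adjusted p = 0.00392), Pck1 (-1.88, adjusted p = 0.00648) and Pck2 (-0.80, adjusted p = 0.0233), the latter pair encoding phosphoenolpyruvate carboxykinases. Slc37a4 rose with GsMTx4 by 0.74 (adjusted p = 0.00829). Of 8 pentose phosphate genes H6pd, of the endoplasmic reticulum, rose by 0.81 with DSS (adjusted p = 0.0436), and Tkt (-0.80, adjusted p = 0.0116) and Rpia (-0.55, adjusted p = 0.0235) fell. Tkt, transketolase, rose by 0.71 with GsMTx4 (adjusted p = 0.0233). Over all genes 6.41% rose and 10.7% fell with DSS, and 6.66% rose with GsMTx4 against DSS. The rise of H6pd was lost when any 1 Control or DSS library or GsMTx4 2 was left out. One fall was lost with DSS 1, DSS 3 or any 1 Control library left out, and the rise of Tkt without DSS 2, DSS 3 or GsMTx4 2. No gene of these lists passed between GsMTx4 and Control. Hepatocyte markers, higher with GsMTx4 as given above, had sums of 54.1 to 75.4 FPKM against 18.9 to 26.7 in DSS and 33.3 to 47.3 in Control, and their part in the values of gluconeogenic genes was not tested.

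**Figure D5:**
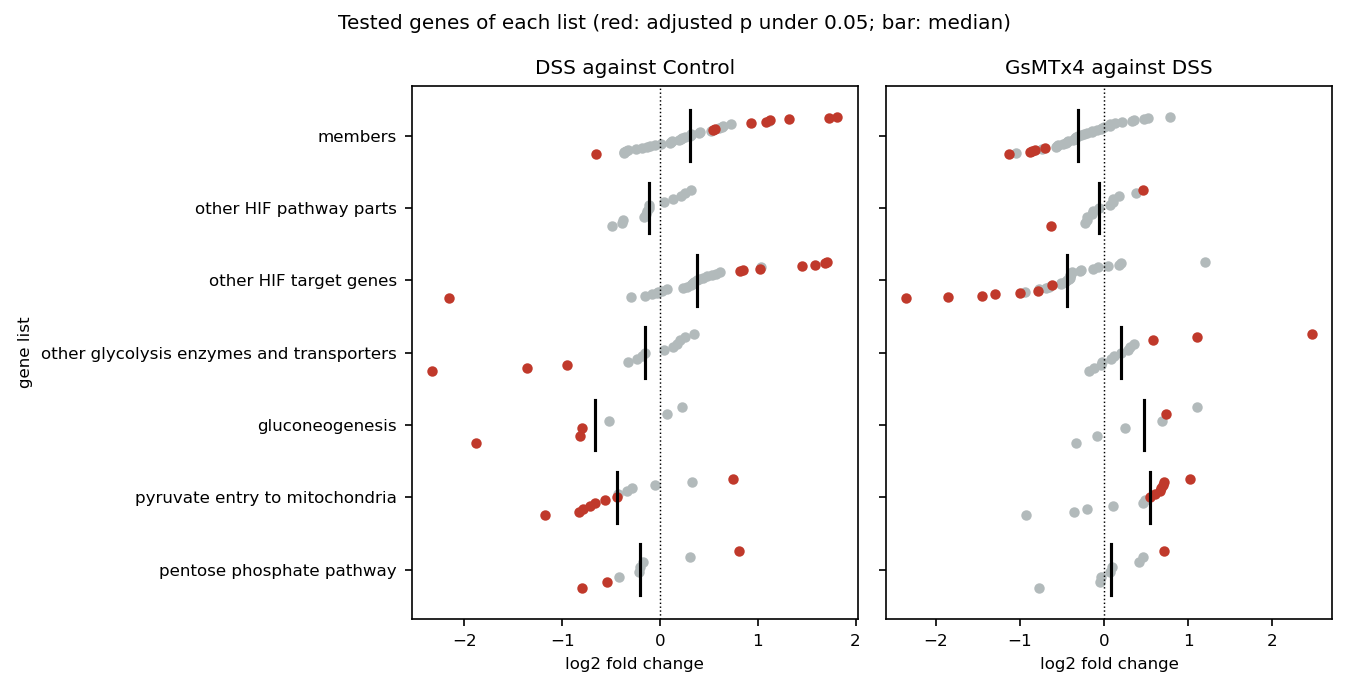
Log2 fold change (horizontal) of each tested gene (points) in the members and 6 related lists (vertical), for DSS against Control and GsMTx4 against DSS. Red points have an adjusted p under 0.05 and bars are medians: pyruvate entry lies at -0.44 and 0.55, the members at 0.31 and -0.31. The panels share the DSS libraries.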

How the data were processed

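Whole colon RNA was measured in 9 libraries, 3 per group. The authors deposited FPKM values per Ensembl gene, a level per transcript length and library size. Per the submitters' processing notes they used cutadapt, FastQC and the GRCm38 build; for the aligner and the FPKM program: not given in the sources used here. Sums of FPKM ran from 349125 to 440935 per library. Read depth is unknown, so no counting interval can be given and the spread between libraries sets the precision. Symbols and GRCm38 coordinates came from the GENCODE annotation, and 35196 of 35315 identifiers matched.

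Genes at 1 FPKM or more in at least 3 libraries (14360) were tested on log2(FPKM + 1) with limma 3.58.1 (R 4.3.3), with a mean per group, all 9 libraries, trended empirical Bayes, two-sided tests and Benjamini-Hochberg adjustment over all tested genes, and passed at an adjusted p under 0.05. Fold changes understate those of low genes. The procedure was tested on simulated data. Tables used pandas 2.3.3 and figures matplotlib 3.10.9.

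Values by library are printed for each member that passed anywhere and for Hif1a, Epas1, Slc2a1, Hk2, Pdk1, Ldha, Vegfa and Car9; from each related list, up to 3 passing genes per direction with the smallest p are named. One gene of these lists is not reported here and was left out of the list's counts. Members, lists and rules were chosen with earlier results of these data known. Alternatives changed the pseudocount, filter, scaling, normalization, libraries fitted, variance trend, replicate block, a left-out library or the minimum fold.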

Additional observations from a re-analysis of the deposited data

How the results depend on the processing

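With DSS against Control, the count of 8 risen members was 5 to 9 when 1 library was left out and 5 when a 2-fold change was also required. The count of 1 fallen member was 0 to 2 without 1 library, and 0 with no filter on low values, median-of-ratios scaling, quantile normalization or the 2-fold requirement. With GsMTx4 against DSS, the count of 0 risen members was 0 to 2 without 1 library (Pdk1 and Aldoc without DSS 2). The count of 5 fallen members was 1 to 7 without 1 library, 3 with no filter, 1 with the compared groups alone and 1 with the 2-fold requirement. With GsMTx4 against Control, the count of 0 risen members was 0 to 1 without 1 library. Only members that had not passed changed sign. Pdk1 with DSS (-0.05) became 0.13 under median-of-ratios scaling and 0.055 under quantile normalization, and was -0.32 to 0.15 without 1 library (above 0 without Control 1, DSS 1 or DSS 3). Vegfa with DSS was -0.050 to 0.24 without 1 library (below 0 without Control 1 or DSS 3), and Car9 -0.077 to 0.41 (below 0 without DSS 2). Ldha with GsMTx4 against DSS became -0.013 under TPM rescaling and -0.080 under median-of-ratios scaling, and was -0.15 to 0.22 without 1 library (below 0 without DSS 1, DSS 3, GsMTx4 1 or GsMTx4 3). Epas1 with GsMTx4 against Control became 0.087 under median-of-ratios scaling and 0.042 under quantile normalization, and was -0.24 to 0.22 without 1 library (above 0 without Control 3 or GsMTx4 3). The causes of these shifts were not tested. Deviations from the group means had correlations of -0.23 to 0.10 between libraries with the same replicate number, and -0.19 to 0.31 between those with different numbers. These correlations cannot decide whether the numbers mark a pairing, because deviations from a mean of 3 libraries are not independent of each other. With a replicate block, 7 members rose (Pkm was lost, adjusted p = 0.0689) and 0 fell with DSS, and 4 fell with GsMTx4 against DSS (P4ha1 was lost, adjusted p = 0.0599), of which all were among the calls without it. Over all genes with DSS, 633 rose and 1056 fell with no filter, against 921 and 1541, and 579 and 992 at a mean of at least 5 FPKM. Depth is unknown, and 2 members under the filter, Eno2 and P4ha2, could not be tested.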
